A study of Drosophila melanogaster with 3 samples.

Results

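The 8 Hox genes lab, pb, Dfd, Scr, Antp, Ubx, abd-A and Abd-B of Drosophila melanogaster were examined for binding of Lpt among 13945 protein-coding genes of the 6 chromosome arms. They were taken by name and not by their signal. All lie on arm 3R, with 5 in the Antennapedia complex and 3 in the bithorax complex. Each gene was taken with 5 kb on each side, and the 6 spaces between neighbours of the same complex were counted as well. The stretch between Antp and Ubx, which separates the complexes, was not counted.

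The data came from chromatin immunoprecipitation and sequencing with an anti-GFP antibody in 3 biological replicates, each of 1 technical replicate. All belong to 1 group: whole white prepupae, males and females pooled, of the Lpt-GFP line, which stably expresses Lpt with GFP at its C terminus. What drives the transgene, and whether the flies keep an intact endogenous Lpt gene, is not given in the sources used here. No control library was analysed, so there was no comparison between groups, and enrichment in the absence of Lpt-GFP was not analysed here. Whole animals mix many cell types, so binding in fewer cells and weaker binding per cell cannot be told apart.

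Hox genes encode homeodomain transcription factors that give segments their identity along the body axis. In flies they stay under the control of Polycomb group repressors and trithorax group activators through metamorphosis, when imaginal discs and histoblasts build the adult. Lpt is a subunit of the complex around the methyltransferase Trr, which places monomethylation on lysine 4 of histone H3 and is best known for its action at enhancers.

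Peaks came from the authors' irreproducible discovery rate (IDR) list, which is meant to keep peaks with reproducible ranks, and from the pooled and replicate lists that had entered that procedure. The 6110 IDR peaks were exactly the 6110 peaks of highest signal in the pooled list. A place in the IDR list thus followed pooled signal and does not show that a peak was listed in every replicate. Signal is the authors' enrichment value for a peak and has its own scale in each list, with medians of 18.5, 25 and 16.7 in replicates 1, 2 and 3. Rank 1 is therefore the peak of highest signal, and a replicate peak is called strong when its rank is 6110 or better. The authors label the pooled and replicate input lists as peaks and background, so low-ranked entries, called weak peaks below, may be background. The number of reads behind the lists is unknown.

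IDR summits of Lpt-GFP were found inside Antp, Abd-B and lab and beyond the 3′ end of Ubx, but within 1 kb of no Hox start site. The genes and the spaces held 14 of the 6110 IDR summits. Antp held 8, Abd-B 3, and lab 1, all in introns, the flank of Ubx held 1, and the space between Ubx and abd-A held 1. pb, Dfd, Scr and abd-A held none, nor did the other 5 spaces. Any summit in the gene or its flanks was found for 4 of 8 Hox genes (50%, exact 95% interval 15.7 to 84.3), against 45.3% of all coding genes. By the strong peaks of replicates 1, 2 and 3, 5, 3 and 4 of 8 Hox genes had such a summit, against 45.5%, 44.6% and 46.1% of all coding genes. Among coding genes of at least 10 kb, a class chosen after seeing the data because the Hox genes are long (median 30.6 kb, against 2.17 kb for all), the share was 67.5%. The Hox shares were not tested, and intervals cover counting error only.

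**Figure D1:**
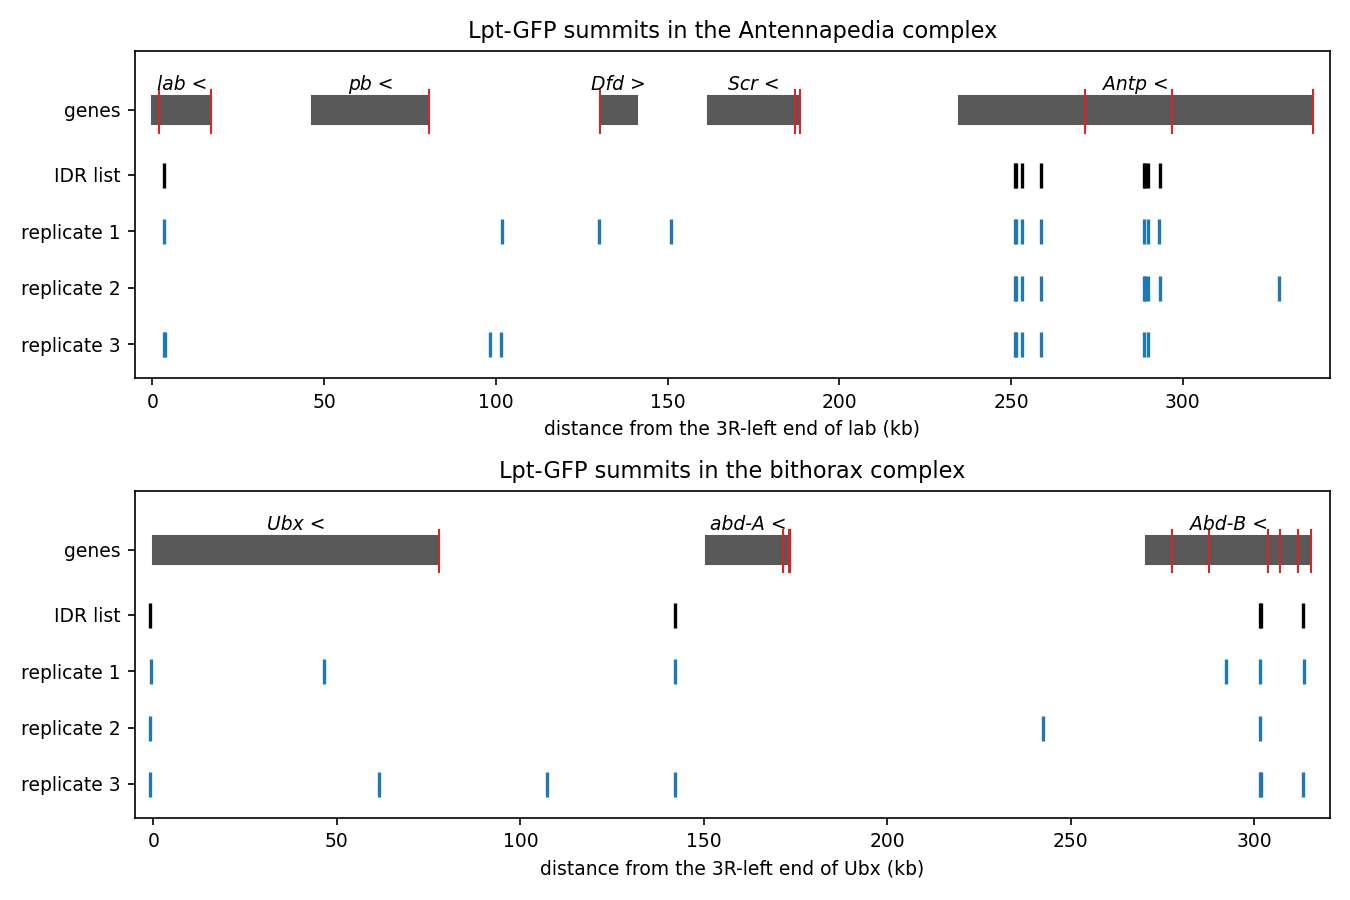
Positions of Lpt-GFP summits along the Antennapedia complex (top) and the bithorax complex (bottom), in kb from the end of lab or of Ubx that lies to the left on 3R. Grey bars are genes with the direction of transcription beside the name, red lines are annotated transcription start sites, and ticks are summits of the IDR list and of the 6110 strongest peaks of each replicate. Summits gather inside Antp and Abd-B, and the IDR row is empty from lab to Antp.

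Both complexes held fewer summits per length than the remainder of 3R. Density in the Antennapedia complex was 25.9 IDR summits per Mb (9 in 348 kb) and in the bithorax complex 15.4 per Mb (5 in 326 kb), against 44.2 per Mb on the rest of 3R. In replicates 1, 2 and 3, the strong peaks gave 31.6, 25.9 and 28.8 per Mb in the Antennapedia complex and 18.4, 9.21 and 21.5 per Mb in the bithorax complex, against 44.2, 43.9 and 44.6 per Mb on the rest of 3R. Every replicate was thus lower in both complexes than on the rest of the arm, and the ranges did not overlap. The ratio to the rest of 3R was 0.650 ± 0.0629 in the Antennapedia complex and 0.369 ± 0.142 in the bithorax complex (SD, n = 3).

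Together the complexes carried 0.998% of the IDR summits of 3R (exact 95% interval 0.547 to 1.67) on 2.1% of its length. For the bithorax complex alone the share was 0.356% (0.116 to 0.830) on 1.02% of the length. For the Antennapedia complex it was 0.641% (0.294 to 1.21), an interval that includes its 1.08% of the length. Neighbouring summits are not independent, so these intervals are too narrow. Density varies along the genome as well: of 1323 tiles of 100 kb on the 5 large arms, 327 (24.7%) held no IDR summit, and the median tile held 4.

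**Figure D2:**
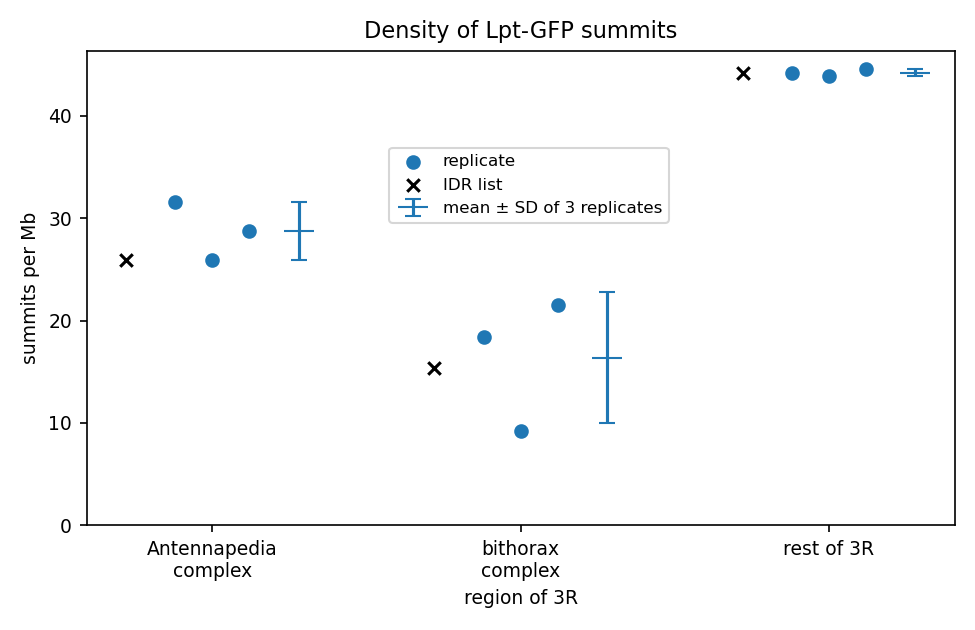
Summits per Mb in the Antennapedia complex, the bithorax complex and the rest of 3R. Crosses are the IDR list, points are the 6110 strongest peaks of each of 3 replicates, and bars are their mean ± SD. All points of both complexes lie between 9.21 and 31.6 per Mb, below the 43.9 to 44.6 per Mb of the rest of 3R.

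The whole input lists, which add weaker peaks and background, were nearer to the rest of the arm. Their ratios therefore do not measure binding alone. The whole pooled list held 109 summits in the genes and spaces, 162 per Mb, against 219 per Mb on the rest of 3R, a ratio of 0.739. In the whole lists of replicates 1, 2 and 3 the ratio was 0.790, 0.567 and 0.966 (mean 0.774 ± 0.200, SD, n = 3), so replicate 3 was close to the rest of the arm. Of the 109 pooled summits, 14 (12.8%) were in the IDR list, against 20.1% on the whole of 3R.

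lab, the most anterior gene of the series, acts in the embryonic head and the midgut. It spans chr3R:6661427-6678590 on the minus strand and has 2 annotated start sites. Its only IDR peak (chr3R:6664711-6665146, signal 111) ranked 5988 of 6110, close to the threshold. It lay in a 14.1 kb intron of 1 of 2 transcripts, 1475 bp upstream of the start site of the shorter one. Its signal was 36.1, 41.3 and 41.9 in replicates 1, 2 and 3, where it ranked 6048, 8134 and 3706. It was thus strong in replicates 1 and 3 and below that mark in replicate 2.

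pb, Dfd and Scr, which pattern the mouthparts, the posterior head and the first thoracic segment, held no IDR summit. They differed in what the weaker lists showed. The strongest peak of the pb region (chr3R:6707800-6742063) ranked 28227 of 30000 in the pooled list and 20802 in replicate 1, at the same place. Replicate 3 had its strongest pb peak elsewhere, at rank 9225, and replicate 2 listed no peak in the region. For Scr (chr3R:6823120-6849981) the pooled rank was 14567, and the best replicate rank was 7682, in replicate 1. Dfd (chr3R:6791836-6802428) came closest: a peak at -374 bp from its start site had signal 106 and rank 6413 in the pooled list, outside the IDR list, whose lowest signal was 110. It ranked 5243 in replicate 1 and 6133 in replicate 3, and replicate 2 listed no peak there. Dfd was the sole Hox gene with a strong peak within 1 kb of a start site in any replicate.

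Antp, which directs the second thoracic segment and its legs, was the main Hox site of Lpt-GFP. Its 103 kb (chr3R:6896253-6999228, minus strand, 12 transcripts from 3 start sites) held 8 IDR summits, and 99 coding genes held more. Strong summits numbered 7, 9 and 6 in replicates 1, 2 and 3 (7.33 ± 1.53, SD, n = 3), the highest count of any Hox region in each. Per length it stood at 0.708 summits per 10 kb, above 63.9% of the 1977 coding genes of at least 10 kb, whose median was 0.430. These comparisons count overlapping peaks separately, in Antp and in the other genes. With overlapping peaks merged, a step added after seeing the data, Antp held 6 places instead of 8 summits. Merged values for the other genes are not given here. All 8 lay in introns that, in the direction of transcription, end at the same base, 6910472, and begin at different bases. In different transcripts this intron measures 21.0 kb, which holds the 4 summits nearest that base alone, or 47.5 or 60.1 kb, which hold all 8. CG46458, a coding gene annotated on the same strand inside Antp, spans them too.

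The Antp summits fell into 2 groups 30.1 kb apart. Proximal and distal here mean nearer to and farther from base 6910472, not from a start site. The proximal group (summits 6912597, 6912802, 6914538 and 6920175) is intronic in all 12 transcripts and lies 12.7 to 20.2 kb downstream of the start site at 6932840. The distal group (6950249, 6950451, 6951312 and 6954814) is intronic in 6 of 12 transcripts, 3556 to 8121 bp downstream of the start site at 6958370, and outside the 6 that start at 6932840. Sequences on the plus strand (dm6, read from the RefSeq release 6 genome) take 50 bp on each side of the summit. They are shown for the 2 strongest summits of each group, all among the 6 strongest summits of the Hox regions and spaces. Capitals mark the words GAGAG and, apart from it, GCCAT, on either strand.
Antp, proximal group, chr3R:6912547-6912647: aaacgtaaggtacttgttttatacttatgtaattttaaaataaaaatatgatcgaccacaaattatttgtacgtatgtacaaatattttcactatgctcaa
Antp, proximal group, chr3R:6914488-6914588: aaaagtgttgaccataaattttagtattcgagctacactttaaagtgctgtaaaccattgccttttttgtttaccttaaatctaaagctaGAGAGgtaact
Antp, distal group, chr3R:6950199-6950299: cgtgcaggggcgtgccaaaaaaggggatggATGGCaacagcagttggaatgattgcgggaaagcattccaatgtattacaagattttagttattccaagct
Antp, distal group, chr3R:6951262-6951362: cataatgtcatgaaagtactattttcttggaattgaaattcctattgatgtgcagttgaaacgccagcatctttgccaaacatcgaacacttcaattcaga

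The strongest Hox site of the data was the proximal peak chr3R:6912379-6912814. Its signal was 104, 127 and 89.6 in replicates 1, 2 and 3 (107 ± 18.6, SD, n = 3), and its ranks there were 867, 1126 and 1046, close to its IDR rank of 983. The distal peak chr3R:6950031-6950466 had signals of 92.8, 107 and 81.4 (93.8 ± 12.9) at ranks 1111, 1589 and 1267. Another distal peak, chr3R:6951228-6951401, reached 87.4, 125 and 68.8 (93.6 ± 28.5) at ranks 1255, 1158 and 1718. All 3 peaks were thus well inside the strong peaks of every replicate, and replicate 2 gave the highest signal in each, as its list did in general.

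The remaining Antp peaks were weaker. The peak chr3R:6914320-6914755 had signals of 73.1, 74.4 and 47.6 (65.0 ± 15.1) and the peak chr3R:6919957-6920392 had 45.4, 63.2 and 34.1 (47.6 ± 14.7). The most distal peak, chr3R:6954596-6955031, had 38.3, 71.9 and 23.5 (44.6 ± 24.8) and ranked 8394 in replicate 3, outside its strong peaks. The other 2 IDR peaks, with summits 205 and 202 bp from the strongest peak of their group, overlap it, so the replicate values of the strong neighbour stand for them.

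Ubx, which gives the haltere-bearing segment of the thorax its identity, held no IDR summit inside its 77.8 kb (chr3R:16656623-16734426, minus strand). The single summit of its region (chr3R:16655530-16655965, rank 3419) lay beyond its 3′ end, 78678 bp from its start site and 0.086 kb upstream of the start site of the neighbouring gene modSP, which encodes a serine protease of Toll signalling. Its signal was 40.4, 67.4 and 44.6 (50.8 ± 14.5, SD, n = 3), and it was strong in all 3 replicates. By position it is a promoter summit of modSP. Inside Ubx, an intronic peak was strong in replicate 1 alone (rank 5513, against 7110 and 10646 in replicates 2 and 3). Its pooled rank was 6430, with signal 106. Another peak, elsewhere, was strong in replicate 3 alone (rank 5385, against 10102 and 7080 in replicates 1 and 2). Its pooled rank was 6139, with signal 109, just outside the IDR list, whose lowest signal was 110.

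Between Ubx and abd-A, 1 IDR peak was found (chr3R:16798639-16799074, rank 2983). It had signals of 60.5 and 57.4 in replicates 1 and 3, at ranks 2554 and 2311, whereas replicate 2 listed no overlapping peak at all. The nearest start site was that of the long noncoding RNA gene CR45750, with the summit at -1743 bp from it, and that of abd-A was 29.2 kb away. The sequence around this summit is shown because it is the only IDR site between neighbouring Hox genes.
Ubx to abd-A, chr3R:16798807-16798907: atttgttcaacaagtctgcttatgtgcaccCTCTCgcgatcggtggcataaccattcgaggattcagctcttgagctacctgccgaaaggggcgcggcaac

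abd-A, which specifies the anterior abdominal segments, held no IDR summit in chr3R:16807214-16830049 or its flanks. Its strongest peak ranked 16394 in the pooled list. Replicate 1 had a peak of rank 8275 at its start sites, replicate 3 had a flanking peak of rank 13196, and replicate 2 listed none.

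Abd-B, which acts in the posterior abdomen and the genitalia, carried the strongest site of the bithorax complex. It spans chr3R:16927212-16972236 on the minus strand and has 10 transcripts from 6 start sites. It held 3, 1 and 3 strong summits in replicates 1, 2 and 3 (2.33 ± 1.15, SD, n = 3). The peak chr3R:16958022-16958457 (IDR rank 1514) had signals of 69.1, 91.7 and 82.2 in replicates 1, 2 and 3 (81.0 ± 11.3, SD, n = 3) at ranks 1987, 2169 and 1244. It lay in an intron of 4 of 10 transcripts, 2041 bp downstream of the start site at 16960281, and was strong in all 3 replicates. A second IDR summit stood 200 bp from it in an overlapping peak. The sequence around the strongest Abd-B summit had a GC content of 24.8% over the bases shown, and that of the strongest Antp site 23.8%.
Abd-B, chr3R:16958190-16958290: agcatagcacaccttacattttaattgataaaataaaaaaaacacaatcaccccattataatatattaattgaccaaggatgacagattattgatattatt
The other Abd-B peak (chr3R:16969846-16970281, rank 3297) had signals of 40.9 and 46.0 in replicates 1 and 3. Replicate 2 listed no peak there. It lay 1490 bp upstream of the nearest Abd-B start site, at 16968574, and 2172 bp downstream of the most upstream one, in an intron of 1 of 10 transcripts.

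**Figure D3:**
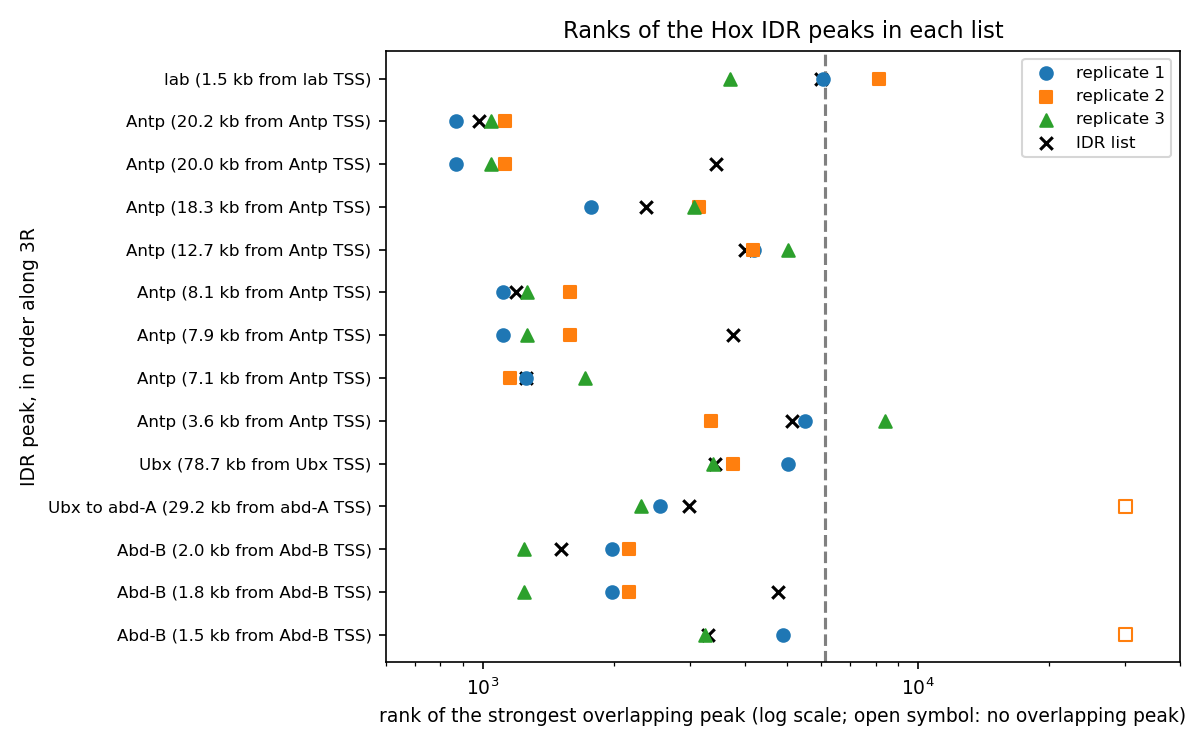
Rank (log scale, 1 is strongest) of each of the 14 Hox IDR peaks in the IDR list (crosses) and of the strongest overlapping peak in each replicate. The dashed line is rank 6110, and open symbols at the right mark peaks with no overlapping peak in that replicate. The strongest peak of each Antp group and the strongest Abd-B peak rank at 2169 or better in every replicate, while 2 peaks are missing from replicate 2.

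No IDR summit lay within 1 kb of any of the 19 annotated Hox start sites. A promoter summit was thus found for 0 of 8 genes, against 19.2% of all coding genes and 38.6% of those of at least 10 kb. For 8 genes the exact 95% interval reaches up to 36.9%, which takes in the share of all coding genes. It falls just short of the 38.6% of the long genes, a class chosen after seeing the data, and the difference was not tested. Among strong peaks, 1, 0 and 0 of 8 Hox genes had a promoter summit in replicates 1, 2 and 3, against 19.6%, 19.2% and 19.3% of all coding genes. The median distance from a gene's start sites to the nearest IDR summit was 45.9 kb for Hox genes and 7.73 kb for all coding genes (3.01 kb for those of at least 10 kb). In order, the distances were 1.48 kb for lab, 1.49 kb for Abd-B, 3.56 kb for Antp, 29.2 kb for abd-A, 62.6 kb for Scr, 64.4 kb for Ubx, 77.1 kb for pb and 121 kb for Dfd. Only 75 of the 1977 coding genes of at least 10 kb lay farther from a summit than Dfd. That distance rests on a small margin. The peak at -374 bp from the Dfd start site had pooled rank 6413 and signal 106, against a lowest IDR signal of 110.

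Most Hox start sites had weak listed peaks at best, which may be background. The Scr start site at 6848505, from which 4 of its 5 transcripts begin, was the only one with a listed peak in all 3 replicates, at ranks 7682, 16826 and 18957. The pb start site had none in any list. At the Ubx start site, replicate 3 alone listed a peak, at rank 17491. At the abd-A start sites, the rank was 8275 in replicate 1, with no peak in the others.

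**Figure D4:**
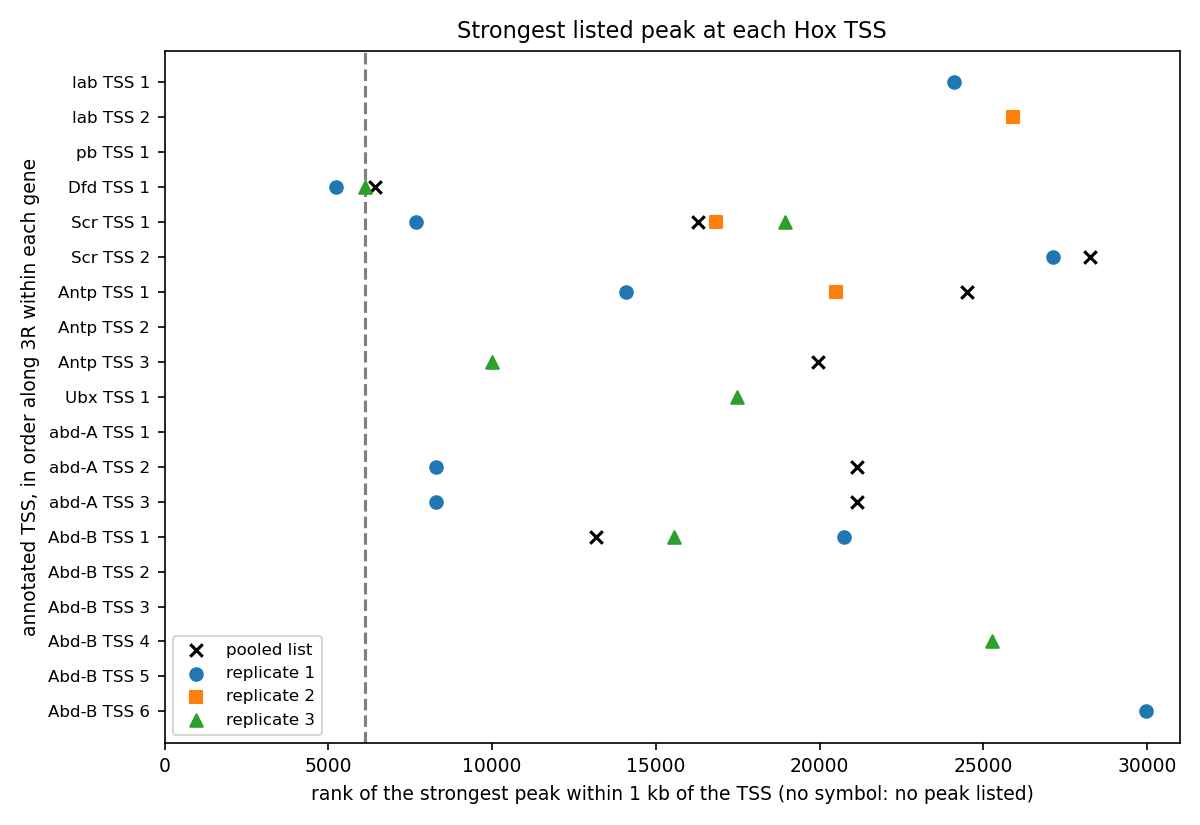
Rank of the strongest peak within 1 kb of each annotated start site (TSS) of the Hox genes in the pooled list and in each replicate. The dashed line is rank 6110, and a start site without a symbol has no listed peak. Only the Dfd start site in replicate 1 lies left of the line, at rank 5243.

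Long stretches of both complexes held no IDR summit. From the lab summit to the first Antp summit, 248 kb that contain pb, Dfd and Scr had none, although the pooled list placed 27 weaker summits there. This gap was the 23rd longest of 6091 between neighbouring summits on the 5 large arms, whose median was 6.01 kb, and 51 gaps reached 200 kb. In the bithorax complex, gaps of 143 kb around Ubx and 159 kb around abd-A ranked 113 and 93. The strongest pooled peak inside the gap around Ubx ranked 6139, just outside the IDR list. Long gaps also lay at the outer ends of the complexes and held no whole Hox gene. They measured 239 kb at lab (rank 27), 129 kb at Ubx (rank 142) and 69.9 kb at Antp (rank 358). Single replicates divided the gaps of the complexes differently. Replicate 2 had no strong summit over 486 kb from beyond lab to Antp, its second longest gap. The part of it from 6426154 to 6656427 lay outside the Antennapedia complex as counted here. Replicates 1 and 3 had strong peaks inside Ama, an immunoglobulin superfamily gene between pb and Dfd, within 1 kb of its start site. Replicate 3 also had one within 1 kb of the bcd start site (rank 6000). Replicate 1 had one at Dfd and one between Dfd and Scr.

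Some strong peaks of single replicates fell outside the IDR list. Of the 17, 12 and 17 strong summits in the Hox regions in replicates 1, 2 and 3, 5, 2 and 4 overlapped no IDR peak (29.4%, 16.7% and 23.5%), against 13.8%, 14.3% and 19.3% of all strong peaks. The highest was in the space between Dfd and Scr (chr3R:6812275-6812690). It ranked 2313 in replicate 1 with signal 63.7, 9176 in replicate 2 and 11951 in replicate 3. The peak chr3R:6762813-6763208, in Ama, ranked 3451 in replicate 3, 6090 in replicate 1 and 11557 in replicate 2, and its pooled rank was 6587. These peaks were therefore strong in some replicates only.

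The Hox IDR peaks were mid-ranked as a set. Their median signal was 160, against 170 over all IDR peaks, and 6 of 14 (42.9%) were in the upper part of the ranking, rank 3055 or better. None was in the top 10% by signal. Of the 14, 10 (71.4%) were among the strong peaks of all 3 replicates, against 63.5% of all IDR peaks. This count gives overlapping IDR peaks the same replicate peaks. With overlapping peaks merged it was 7 of 11 places (63.6%), against 61.9% of all merged IDR peaks. By position, 12 of 14 (85.7%) lay in introns over 1 kb from any start site, against 39.1% of all IDR summits, and 1 of 14 (7.14%), that of modSP, lay within 1 kb of any start site, against 47.3%. In replicates 1, 2 and 3, introns held 76.5%, 83.3% and 76.5% of the strong Hox summits, against 37.8%, 37.9% and 39.0% of all strong summits. Hox summits also came in close pairs: 6 of 14 (42.9%) had another within 500 bp, against 12.6% of all IDR summits. These are descriptions of 14 summits in 11 places once overlapping peaks are merged, and they were not tested.

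Of 6 short sequence words searched around the Hox summits, 4 were found. Windows took 100 bp on each side of a summit, and both strands were read. GAGAG, the core bound by the GAGA factor, occurred at 5 of 14 Hox summits (35.7%), against 30.6% of all IDR summits and 27.9% of all pooled summits. GCCAT, the core of the Polycomb recruiter Pho, occurred at 5 of 14 (35.7%), against 25.1% and 31.6%. TAATTA, a core bound by many homeodomains, occurred at 3 of 14 (21.4%), against 13.9% and 12.1%. With 50 bp on each side, TAATTA was at 0 of 14 (7.79% of all IDR summits) and GCCAT at 2 (13.0%). CGATA, part of the BEAF-32 site, occurred 4 times at the modSP summit and at no other Hox summit, against 20.2% of IDR and 20.8% of pooled summits. With 200 bp on each side CGATA was at 5 of 14 Hox summits (35.7%), against 36.5% of all IDR summits. AGGTCA, the core bound by many nuclear receptors, was found in none of these windows, against 3.67% of IDR and 3.75% of pooled summits. The GATA factor word GATAAG was not found either, against 8.49% and 8.81%. Median GC content was 36.1% at Hox summits and 36.3% at all IDR summits. By site, the Antp summit at 6920175 held 3 GAGAG words and that at 6950249 held 3 GCCAT words, whereas the strongest Antp summit held none of the 6 words searched.

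For other homeobox genes and genes that act with Hox proteins, counts are to be read against the 19.2% of all coding genes with a promoter summit and the 45.3% with one in the gene or its flanks. Of the other Antennapedia complex homeobox genes, bcd, zen, zen2 and ftz, 0 of 4 had any IDR summit, and strong peaks gave a promoter summit in 0, 0 and 1 of 4 in replicates 1, 2 and 3. Among Hox cofactor genes, 2 of 6 had a promoter summit: hth, which brings the partner Exd into the nucleus (signal 136, rank 4376), and disco-r (118, rank 5421). By the strong peaks of replicates 1, 2 and 3 the count was 3, 1 and 0 of 6. hth held 13 summits in 132 kb, more than any Hox gene, while exd, tsh, tio and disco held none. Of 9 target genes of Hox proteins, 2 had a promoter summit, Dll, the distal leg selector (131, rank 4696), and fkh, a salivary gland regulator (125, rank 4978), and 7 had one in the gene or its flanks. The replicates gave promoter summits in 3, 4 and 1 of 9. The strongest IDR peak of the list was at dpp, a growth factor gene (signal 842, rank 74).

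In the NK homeobox cluster, 1 of 6 genes had a promoter summit, tin, the heart determinant (signal 365, rank 730), and each replicate gave 1 of 6. The 3 Iroquois genes held no IDR summit, although replicate 3 gave a promoter summit in 1 of 3, and replicates 1 and 2 in 0. Of en and inv only inv held summits (2, the stronger at rank 2376), and no replicate gave a promoter summit. Of cad, eve, zfh1 and zfh2, zfh2 had a promoter summit (123, rank 5148), and zfh1 held the strongest (414, rank 564). The replicates gave promoter summits in 0, 1 and 0 of these 4. Per 10 kb, summits numbered 0.311 in Hox genes with their flanks, 0.564 in the cofactor list, 0.398 in the target list, 0.261 in the NK cluster, 0.336 in en and inv, 0.430 in the last list named, and 0 in the Iroquois genes and in bcd, zen, zen2 and ftz, against 0.540 over all coding genes. With 2 to 9 genes a list, these values were not tested against each other.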

How the data were processed

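ChIP-seq peak lists of 3 biological replicates of Lpt-GFP white prepupae (fragments of 200 to 800 bp, per the labels) were used in build dm6, per the deposited descriptions. The authors deposited, for each peak, a signal, a −log10 q-value and the summit offset; per the deposited descriptions, input lists came from alignments and 1 further file, and the IDR list from those of the single replicates and of the pool. The aligner, the peak caller and its thresholds were not given in the sources used here. The deposited −log10 q-values reach one shared maximum in many of the strongest peaks of a list, so peaks were ranked by signal.

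Summits (1-based) were placed on the Ensembl release 115 annotation without transposable elements; coordinates of all 8 genes equalled those of the RefSeq release 6 annotation, whose genome gave the sequences. Within a gene region, a summit was assigned to a start site (within 1 kb), exon, intron or flank, in that order. Overlap meant at least 1 shared base. Values are given as mean ± SD over 3 replicates, with exact (Clopper-Pearson) 95% intervals for shares; no test was run, as there is 1 group. The calling of genes with a summit within 1 kb of a start site, and not the other counts, was checked on simulated summits. Named were all members, the IDR peaks of their regions (up to 3 per region with coordinates; the further Antp peaks, and peaks outside the IDR list, were added after their values were seen), list members with a promoter summit and the strongest of each list; sequences surround the 6 strongest summits. Genes and lists were chosen with earlier results of these data known. The dm3 lists were not used. Computations used scipy 1.17.1, pandas 2.3.3 and numpy 2.4.6 under Python 3.11.15, with figures from matplotlib 3.10.9. Alternatives covered single replicates left out, flank and start-site distances, motif windows and stricter peak sets; the long-gene background and merged peaks were added after seeing the data.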

Additional observations from a re-analysis of the deposited data

How the results depend on the processing

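Read depth and control enrichment were not analysed here, and peaks near rank 6110 pass or fail by small margins, as at lab, at Dfd and inside Ubx. The count of 14 Hox summits was 10 to 13 without any single replicate (only IDR peaks that overlap a strong peak in both others are then kept, which shortens the list), 14 with flanks of 2 or 10 kb or with the strongest pooled peaks, which are the same peaks, 11 with overlapping peaks merged (chosen after seeing the data) and 6 in the upper part of the ranking. The summits of lab and of the space between Ubx and abd-A were lost without replicate 1 or replicate 3. Abd-B fell from 3 to 2 without replicate 1 or replicate 3, and Antp from 8 to 7 without replicate 1 or replicate 2. No Hox gene had a promoter summit within 500 bp, without any single replicate or among peaks shared by all 3 replicates; 2 had one within 2000 bp (24.6% of all coding genes) and 3 within 5000 bp (39.2%). The density of both complexes relative to the rest of 3R, 0.470, was 0.486 to 0.607 without any single replicate. For the Antennapedia complex, 0.585 became 0.658 to 0.723 without any single replicate, 0.721 among peaks shared by all 3 replicates and 0.481 with overlapping peaks merged. For the bithorax complex, 0.347 ranged from 0.28 to 0.483. GAGAG occurred at 3 of 14 Hox summits with 50 bp on each side (16.2% of all IDR summits) and at 7 with 200 bp (53.2%), where GCCAT was at 6 (49.5%) and TAATTA at 5 (21.9%). No paired analysis was possible because all samples belong to 1 group.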

Other observations

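The complexes also hold coding genes that are not Hox genes. In the Antennapedia complex, start sites of 0 of 18 such genes lay within 1 kb of an IDR summit, among them 7 cuticle protein genes of the Ccp84A cluster and Edg84A, which ecdysone controls. In the bithorax complex 1 of 7 had one, modSP, against 19.2% of all coding genes. The microRNA genes of the complexes were far from IDR summits: mir-10 at 103 kb, mir-993 at 111 kb, and mir-iab-4 and mir-iab-8, which share a locus on opposite strands, at 57.4 kb.

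The 3 Hox places that replicate 2 ranked low or did not list, at lab, between Ubx and abd-A and in the upstream part of Abd-B, were all listed by replicates 1 and 3. Replicate 2 had the fewest strong summits in the bithorax complex, 3, against 6 and 7 in replicates 1 and 3. These places were picked after their values were seen.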
